A study of Mus musculus with 12 samples.

Results

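The 10 genes of the MHC class II presentation pathway described here were H2-Aa, H2-Ab1, H2-Eb1, Cd74, H2-DMa, H2-DMb1, H2-DMb2, H2-Oa, H2-Ob and Ciita. They were chosen by name, for their role in the pathway, from the 21754 genes of a count table of bulk RNA-sequencing, and all 10 had an identifier in it and passed the filter on low counts. The table holds 12 SCRB-seq libraries, 3 from each of 4 populations sorted from the bone marrow (BM) of C57BL/6 mice, an inbred laboratory strain. All cells had been gated as lineage-negative Flt3+ CD11c+ cells. Siglec-H- pre-cDCs, the precursors of conventional dendritic cells (cDCs), were gated in addition as B220- cells with low surface MHC class II and low Sirp-α. Among Siglec-H+ cells, CCR9lo B220lo cells (lo-lo), CCR9lo B220hi cells (lo-hi) and CCR9hi B220hi plasmacytoid dendritic cells (pDCs) were separated by CCR9 and B220, with no gate on MHC class II shown for this sort. The study describes the CCR9lo pool all the same as cells with little or no surface MHC class II and pDCs as positive for it. Within the CCR9lo pool it reports more surface MHC class II on cells with more B220, the marker that parts lo-hi from lo-lo. The comparisons ask where along these populations the RNA for class II presentation differed. Since the pre-cDC gate selected on the surface protein of the same pathway, a difference from pre-cDCs cannot be told apart from that gate. The differences among lo-lo, lo-hi and pDC libraries concern populations that the study already describes by this protein. From its bulk RNA-sequencing the study also reports more RNA of class II subunits, Ciita and Cd74 in pDCs than in lo-hi cells.

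The population of each library was not taken from the deposited label. The study's source data for 28 transcription factors, none of them among the 10 genes, ranked 378 pairs of factors in exactly the order of the columns A1, A5 and A9 for pre-cDC, A2, A6 and A10 for lo-lo, A3, A7 and A11 for lo-hi and A4, A8 and A12 for pDC. Each of the 12 source samples had 0 pairs in the opposite order in its matched library and at least 7 in every other library. This assignment is used throughout. The deposited labels name another population for 8 of the 12 libraries and the same one for 4 (A1, A6, A7 and A12), so that results are also given without the 8. The libraries are called by matched population and replicate, so that lo-lo replicate 1 is A2. With the groups of the labels, 0 of the 10 genes passed the edgeR test in any comparison, 0 had an unadjusted p under 0.05 in any of the 5 pairs of populations, and 0 of the 15293 genes tested passed. DESeq2 was not run on these groups.

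MHC class II molecules show peptides from endosomes to CD4+ T cells. The classical molecule of C57BL/6 mice, H2-A, is built from the α chain of H2-Aa and the β chain of H2-Ab1. H2-Eb1 encodes the β chain of H2-E, whose α chain gene is annotated as a pseudogene, H2-Ea-ps. New molecules are held by the invariant chain, encoded by Cd74, which fills the groove and directs them to endosomes, where proteases trim it. H2-M, from H2-DMa with H2-DMb1 or H2-DMb2, then takes out the last invariant chain fragment and edits the peptides. H2-O, from H2-Oa and H2-Ob, holds H2-M back. Ciita encodes a coactivator of class II genes. It binds no DNA itself and works through the RFX, CREB and NF-Y factors on the X and Y boxes of the promoters. pDCs are known above all for type I interferon, and cDCs as the main class II presenting cells.

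Of the 10 genes, 8 lie in the class II region of chromosome 17 (GRCm38, GENCODE vM21). H2-Oa lies at 34092340 to 34095234, H2-DMa at 34119541 to 34139101, H2-DMb2 at 34143307 to 34151555 and H2-DMb1 at 34153072 to 34160230. H2-Ob lies at 34238903 to 34254414, H2-Ab1 at 34257689 to 34269419, H2-Aa at 34282744 to 34287823 on the minus strand, and H2-Eb1 at 34305867 to 34316674. Ciita is on chromosome 16 at 10480059 to 10528418. RefSeq promoters of 300 bases were at hand for 7 of the 10 genes. They run from 250 bases before to 50 after each start and were searched on both strands for GATTGG, the core of the Y box, for its longer form CTGATTGG, which contains the core, for TGACG, a core of the X2 box, and for X1 letters, spelled as AG, AC and ATG in this order with 2 free bases in each gap. The following 64 bases around the Y box core are shown for genes that moved and for genes that did not. Whether Ciita acts through them was not tested in these data. Sequences are from RefSeq (GRCm38.p6), 5′ to 3′ on the strand of the gene, and capitals mark the letters found on either strand.
H2-Aa, chr17:34287859-34287922, minus strand: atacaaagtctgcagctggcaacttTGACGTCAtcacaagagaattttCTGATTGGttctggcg
H2-Eb1, chr17:34305757-34305820, plus strand: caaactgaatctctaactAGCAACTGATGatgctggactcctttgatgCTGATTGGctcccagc
H2-Oa, chr17:34092285-34092348, plus strand: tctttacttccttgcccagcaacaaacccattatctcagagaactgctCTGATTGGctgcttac
H2-DMb1, chr17:34153079-34153142, plus strand: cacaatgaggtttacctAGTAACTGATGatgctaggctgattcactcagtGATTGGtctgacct
H2-DMb2, chr17:34145108-34145171, plus strand: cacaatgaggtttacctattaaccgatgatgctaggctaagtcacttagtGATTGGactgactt
H2-Ob, chr17:34238797-34238860, plus strand: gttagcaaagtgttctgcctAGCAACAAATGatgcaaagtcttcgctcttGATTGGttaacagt

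The Y box core stood in the promoters of all 7 genes on the strand of the gene. In 6 of them it lay between 44 bases before the start in H2-Oa and 91 in H2-DMb2, and in H2-DMa it stood only in the second of 2 annotated promoters, at 199 bases. H2-Eb1 held the core once more on the opposite strand, 35 bases before the start and outside the window shown. Of all 32851 RefSeq promoters, 16.1% held these 6 letters on either strand. The longer form was found in H2-Aa, H2-Eb1 and H2-Oa and in 4.1% of all promoters. TGACG was found in H2-Aa, 25 bases before the Y box core, with an overlapping copy on the opposite strand, and in 20.8% of all promoters. The X1 letters stood 32 bases before the core in H2-Eb1, 33 in H2-DMb1 and 30 in H2-Ob. They stood 97 bases before it in H2-Oa, outside the window shown, and in 3.09% of all promoters. The windows of H2-DMb1 and H2-DMb2, neighbouring paralogs, were identical at 57 of 64 positions (89.1%). This identity concerns the promoter windows and not the RNA counted. Whether the counting could tell reads of these 2 genes apart was not tested, so that each of their values is uncertain. These matches describe letters in a window, and binding was not measured.

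Total counts ranged from 1801463 to 5995971 per library, so that 3 counts, taken as the floor, came to 0.5 to 1.665 per 1e+06 of the total. All levels below are CPM, counts per 1e+06 of the library size after TMM scaling. The libraries carry 3′ tags, so that ratios between genes are compared only across libraries and do not rank the genes. The summed markers of the sorted cells followed the matched populations, and some single markers did not. The summed CPM of 5 pDC lineage markers (Siglech, Ccr9, Bst2, Klra17 and Ly6d) ranged from 1051 to 1535 in pre-cDC, 3592 to 3918 in lo-lo, 6034 to 6491 in lo-hi and 6995 to 7503 in pDC libraries. That of 5 cDC lineage markers (Csf1r, Cx3cr1, Zbtb46, Batf3 and Id2) was lower in the same order, from 232.5 to 297.3 in pre-cDC down to 53.1 to 56.8 in pDC libraries. Mean Ly6d was 2043 CPM in lo-lo, 2397 in lo-hi and 2033 in pDC libraries. Mean Id2 was 17.7 CPM in lo-lo and 20.3 in lo-hi libraries. Mean Batf3, near the floor, was 0.86 CPM in lo-hi and 1.13 in pDC libraries. The means of the other single markers followed the order of the sums. Neutrophil (2863 to 18330) and erythroid (4677 to 18410) marker sums were present in all libraries. The erythroid sum was 5802 to 8217 CPM in lo-lo and 9120 to 11600 in lo-hi libraries. All 4 erythroid genes were higher in every lo-hi than in every lo-lo library, which held for 13.6% of all genes tested, and 0 were called by edgeR or DESeq2 or had an unadjusted p under 0.05. The sum of 3 plasma cell markers, most of it Ighm, was 494.8 to 619.9 CPM in lo-lo, 626.5 to 703.6 in lo-hi and 655.6 to 1115 in pDC libraries.

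B cells, macrophages and mature cDCs also make class II RNA, and their markers were summed. The 7 B lineage markers came to 65.2 to 107.6 CPM in pre-cDC, 64.54 to 97.45 in lo-lo, 103.5 to 153.7 in lo-hi and 101.1 to 130.6 in pDC libraries. Most of the sum was Cd79b, a chain of the B cell receptor complex, which was higher in lo-hi than in lo-lo (log2 fold change 0.75 ± 0.18 SE, edgeR adjusted p = 0.00717) and in pDC than in lo-lo libraries (0.73 ± 0.18, 0.00352). From lo-lo to lo-hi all 7 had values above 0, from 0.55 to 1.74, and 1 of 7 was called, beside 2.33% of all genes tested called higher. Pax5 was at 1.49 ± 0.47 (adjusted p = 0.0661) and Cd79a, at 0 in lo-lo replicate 2, at 1.74 ± 0.73 (0.167). Ms4a1 stayed between 0.223 and 3.62 CPM in all libraries. The 7 genes listed as mature cDC markers came to 364.9 to 645.2 CPM in pre-cDC, 132.3 to 202.1 in lo-lo, 183 to 259.3 in lo-hi and 265.1 to 332.6 in pDC libraries. Most of this sum was Cd209a, which the study names among genes typical of pre-cDCs and common dendritic cell progenitors. The sum thus cannot set mature cDCs apart from the sorted cells. Cd209a was lower in lo-lo than in pre-cDC libraries (-2.03 ± 0.25 SE, adjusted p = 7.73e-05) and higher in pDC than in lo-lo libraries (1.202 ± 0.25, 0.00183), and was the 1 of 7 called in each. Of all genes tested, 1.55% were called lower in the first and 6.71% higher in the second of these comparisons. Clec9a was higher in every pDC than in every lo-lo library and was not called (0.58 ± 0.17, 0.0122). Xcr1 stayed between 0.517 and 4.91 CPM, and Ccl22 was at 0 in 6 libraries. Of the 7 macrophage and monocyte markers, 4 were at 0 in at least 1 library, C1qa reached at most 9.56 CPM, and the sum of 1913 to 3231 CPM was almost wholly Ly6c2, which was higher in pDC than in lo-lo libraries (0.48 ± 0.13, 0.00995). The part of such cells in the results was not tested. In bulk samples fewer cells of a type and less RNA per cell cannot be told apart.

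Over the 4 populations together, 9 of the 10 genes passed the edgeR quasi-likelihood F test at an adjusted p under 0.01, all but H2-Ob, where 19.9% of all genes tested passed. The chains of the classical molecules and the invariant chain had their lowest means in lo-lo, with overlapping levels in pre-cDCs for all but Cd74, and were higher in lo-hi and highest in pDCs. H2-M chains did not follow that order, H2-Oa did and H2-Ob did not. Together the 10 genes took 0.207% of all counts in lo-lo replicate 1 and 1.63% in pDC replicate 1, the lowest and the highest library.

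**Figure D1:**
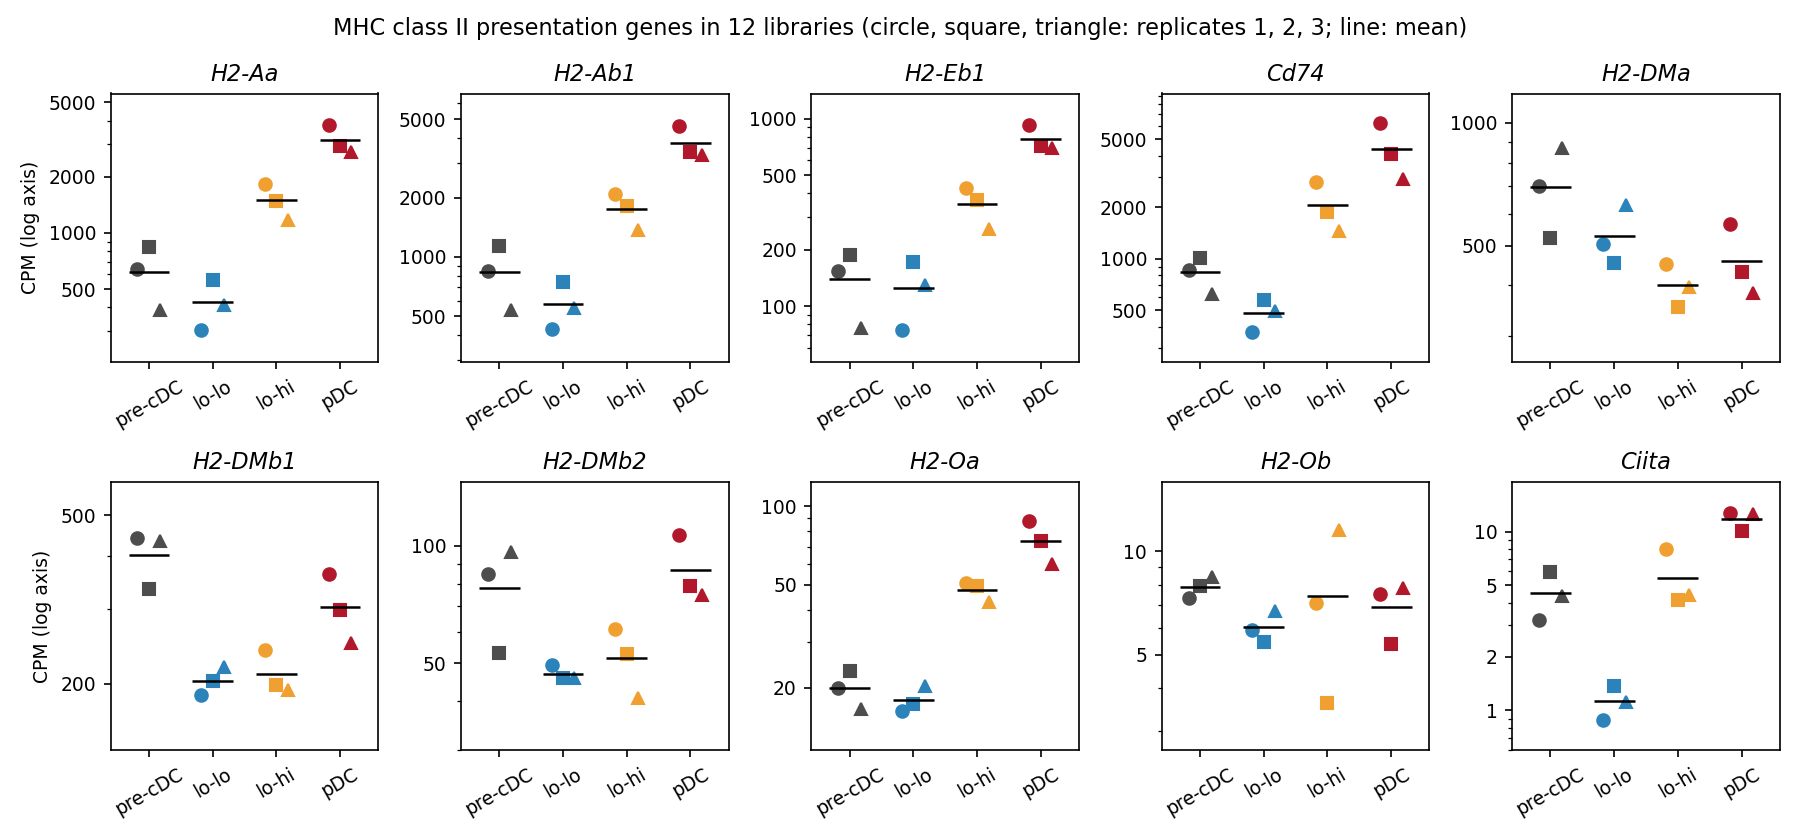
CPM of the 10 genes (log axis) in the 12 libraries by population; circles, squares and triangles are replicates 1, 2 and 3 and lines are means of 3. All but H2-DMa and H2-Ob, 8 of the 10 genes, were higher in all 3 pDC libraries than in all 3 lo-hi libraries, which held for 8.27% of all genes tested.

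H2-Aa, the α chain of H2-A, was at 641, 838 and 385 CPM in pre-cDC replicates 1, 2 and 3 and at 301, 561 and 414 CPM in lo-lo. It was at 1830, 1482 and 1171 CPM in lo-hi and at 3785, 2940 and 2701 CPM in pDC libraries. The pre-cDC and lo-lo libraries overlapped, every lo-hi library lay above them, and every pDC library above those. The group means were 621 ± 227, 425 ± 130, 1494 ± 330 and 3142 ± 570 CPM (SD, n = 3). H2-Ab1, its β chain, was at 851, 1136 and 539 CPM in pre-cDC, 429, 746 and 554 in lo-lo, 2078, 1804 and 1372 in lo-hi, and 4604, 3405 and 3290 in pDC libraries. The order of the libraries was that of H2-Aa, and the Pearson correlation of both genes over the 12 libraries was 0.999, a description, since the libraries share populations. H2-Eb1 was at 154, 187 and 77.0 CPM in pre-cDC, 74.4, 173 and 129 in lo-lo, 427, 368 and 259 in lo-hi, and 926, 718 and 699 in pDC libraries. It too overlapped between pre-cDC and lo-lo and nowhere else along the order. The pseudogene H2-Ea-ps had 0 or 1 count in every library, and H2-Eb2, a further β chain gene, at most 2, and neither was tested.

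Cd74, the invariant chain gene on chromosome 18, was at 861, 1013 and 622 CPM in pre-cDC, 373, 577 and 499 in lo-lo, 2831, 1885 and 1447 in lo-hi, and 6190, 4117 and 2935 in pDC libraries. All 3 lo-lo libraries lay below all pre-cDC libraries, which the classical chains did not show, but this difference was not called (log2 fold change -0.79 ± 0.33 SE, edgeR adjusted p = 0.249). The pDC libraries spread most for Cd74, with a mean of 4414 ± 1648 CPM (SD, n = 3). Its ratio to the sum of the 3 classical chain genes stayed between 0.39 and 0.664 in all libraries.

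The H2-M genes had another pattern. H2-DMa was at 702, 524 and 868 CPM in pre-cDC, 506, 454 and 629 in lo-lo, 452, 353 and 397 in lo-hi, and 565, 431 and 384 in pDC libraries. It was thus highest in pre-cDCs on average, and no difference among the Siglec-H+ populations was called. H2-DMb1 was at 442, 335 and 435 CPM in pre-cDC, 188, 203 and 219 in lo-lo, 240, 198 and 193 in lo-hi, and 363, 299 and 249 in pDC libraries. Every lo-lo and lo-hi library lay below every pre-cDC and pDC library. H2-DMb2 was at 84.9, 53.1 and 96.6 CPM in pre-cDC, 49.6, 45.7 and 45.8 in lo-lo, 61.4, 52.8 and 40.8 in lo-hi, and 107, 79.0 and 75.1 in pDC libraries. The means of both H2-DMb genes were thus lower in lo-lo and lo-hi than in pre-cDC and pDC libraries. For H2-DMb2 the lo-hi and pre-cDC libraries overlapped, and neither gene was called from lo-hi to pDC. The ratio of H2-DMb2 to H2-DMb1 stayed between 0.158 and 0.301 across the libraries. H2-DMa overlaps Brd2 on the opposite strand, and whether the counting used the strand is not given in the sources used here.

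The H2-O genes parted. H2-Oa was at 19.9, 23.3 and 16.6 CPM in pre-cDC, 16.2, 17.4 and 20.3 in lo-lo, 50.6, 49.1 and 43.0 in lo-hi, and 87.7, 73.6 and 59.9 in pDC libraries. Its lo-hi libraries lay above all pre-cDC and lo-lo libraries and below all pDC libraries. H2-Ob was at 7.32, 7.93 and 8.45 CPM in pre-cDC, 5.91, 5.46 and 6.70 in lo-lo, 7.07, 3.62 and 11.6 in lo-hi, and 7.49, 5.37 and 7.81 in pDC libraries. The spread within lo-hi (CV 53.7%) covered the levels of all other populations, and no comparison called H2-Ob (adjusted p = 0.784 over the 4 populations).

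Ciita, the coactivator, had few counts: 11, 12 and 13 in pre-cDC, 3, 4 and 5 in lo-lo, 36, 8 and 8 in lo-hi, and 75, 32 and 29 in pDC libraries. Per library size these were 3.22, 5.95 and 4.39 CPM, 0.886, 1.37 and 1.12 CPM, 7.95, 4.14 and 4.41 CPM, and 12.8, 10.1 and 12.6 CPM. The lo-lo libraries, near the floor, lay below all others, and the pDC libraries above all others. The pre-cDC and lo-hi libraries overlapped. Ciita overlaps Dexi on the opposite strand, which had 256 counts over all 12 libraries.

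Between lo-lo and pre-cDC, 2 of the 10 genes were called, both lower in lo-lo, where 1.55% of all genes tested were lower and 3.16% were called in either direction. H2-DMb1 was lower by a log2 fold change of -0.99 ± 0.16 (SE, adjusted p = 0.000219) and Ciita by -1.93 ± 0.44 (SE, adjusted p = 0.00624). The other 8 also had values below 0, from -0.79 for Cd74 to -0.13 for H2-Oa, and were not called. The median of the 10 was -0.55 and that of all genes tested 0.04. The Ciita call was lost when pre-cDC replicate 2 (adjusted p = 0.0193), pre-cDC replicate 3 (0.0245) or lo-lo replicate 1 (0.0382), 2 (0.0151) or 3 (0.0298) was left out, and by DESeq2 (0.0123). H2-DMb2 (-0.74 ± 0.20 SE, adjusted p = 0.0251) was called without pre-cDC replicate 2 (0.000808) and with the replicate number as a block (0.0041).

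From lo-lo to lo-hi, 5 of the 10 genes rose and 0 fell, where 2.33% of all genes tested were higher and 5.17% were called in either direction. Ciita rose 5.23-fold (log2 fold change 2.39 ± 0.41 SE, adjusted p = 0.000283), Cd74 4.26-fold (2.09 ± 0.34, 0.00302), H2-Aa 3.52-fold (1.82 ± 0.31, 0.00298), H2-Ab1 3.04-fold (1.60 ± 0.28, 0.00304) and H2-Oa 2.64-fold (1.40 ± 0.19, 1.98e-05). H2-Eb1 was 2.81-fold higher with a wider error (1.49 ± 0.37 SE, edgeR adjusted p = 0.0345) and was not called. It was called by edgeR without pre-cDC replicate 3 (0.00669) or without the filter on low counts (0.000232), and by DESeq2 (0.00302). The H2-M genes and H2-Ob had values from -0.40 to 0.27. The median of the 10 was 1.45, beside 0.01 for all genes tested. The sums of the B lineage, erythroid, plasma cell, and macrophage and monocyte markers also lay higher in every lo-hi than in every lo-lo library. The macrophage and monocyte sum was mostly Ly6c2, and of its 7 genes 4 had log2 fold changes below 0 and 3 above. The plasma cell sum was mostly Ighm, with means of 523 CPM in lo-lo and 596 in lo-hi libraries. Igkc was at 32.7 and 58.2 and Jchain at 9.09 and 8.96. The part of such cells in this step was not tested. The number called was 2 without lo-lo replicate 3, where H2-Aa (adjusted p = 0.0205), H2-Ab1 (0.0219) and Cd74 (0.0203) missed the threshold at fold changes of 1.79, 1.57 and 2.11 on the log2 scale. Without lo-hi replicate 1 Ciita was at 1.88 (0.027), and without lo-hi replicate 2 H2-Ab1 at 1.58 (0.0112).

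From lo-hi to pDC, 0 of the 10 genes passed the edgeR test, where 0.118% of all genes tested were higher in pDCs and 0.961% were called in either direction. At an unadjusted p under 0.05 there were 8, all higher in pDCs, where 4.94% of all genes tested were higher at this p. DESeq2 called 3 (H2-Aa, H2-Ab1 and Cd74) as higher, and 0.183% of all genes. The 8 were also higher in every pDC library than in every lo-hi library, which held for 8.27% of all genes tested. Their fold changes ranged from 0.53 for H2-DMb1 to 1.15 for H2-Eb1 on the log2 scale. H2-Ab1 was 2.15-fold higher (1.10 ± 0.28 SE, edgeR adjusted p = 0.074) and Ciita 1.98-fold (0.98 ± 0.29, 0.0777). The smallest adjusted p, 0.0515, was that of H2-Oa (0.64 ± 0.17). With the replicate number as a block, edgeR called 2 as higher, H2-Ab1 (0.0039) and H2-DMb2 (0.00656), and 0.556% of all genes. The neutrophil marker sum was 8615 to 18330 CPM in lo-hi and 2863 to 5850 in pDC libraries, and its part in this step was not tested. pDC replicate 1 was the most deeply sequenced library and the highest for the classical chains.

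**Figure D2:**
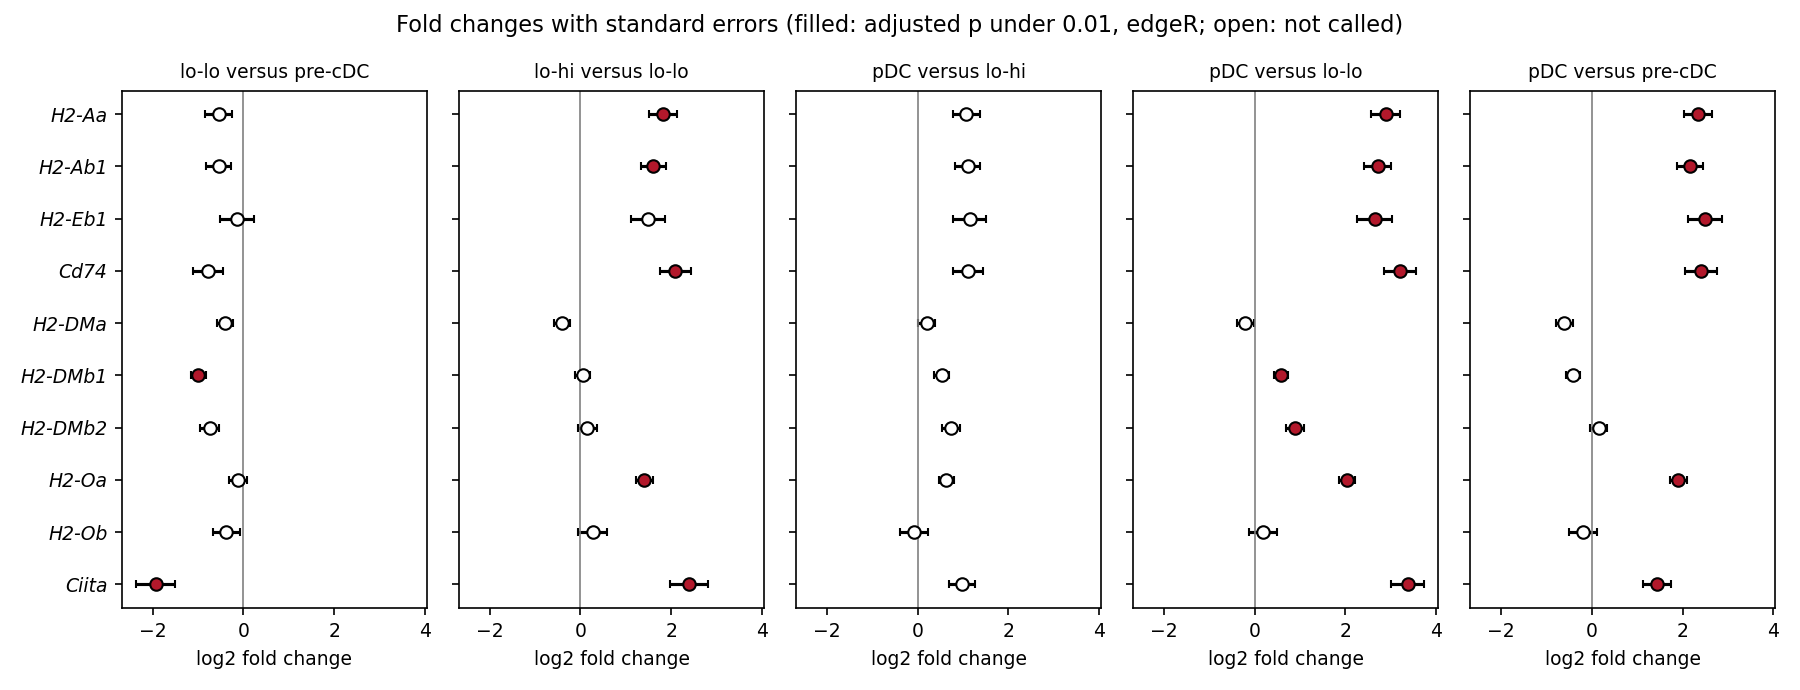
Log2 fold changes of the 10 genes with standard errors in 5 comparisons; filled points passed an adjusted p under 0.01 (edgeR, 12 libraries). The number filled is 2, 5, 0, 8 and 6 from left to right, and the classical chains, Cd74, H2-Oa and Ciita stand to the right of the H2-M genes and H2-Ob in the last 2 panels.

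Across the Siglec-H+ populations as a whole, from lo-lo to pDC, 8 of the 10 genes rose, all but H2-DMa and H2-Ob, where 6.71% of all genes tested were higher and 13.8% were called in either direction. Ciita was 10.3-fold higher (log2 fold change 3.37 ± 0.36 SE, adjusted p = 1.01e-07) and Cd74 9.14-fold (3.19 ± 0.35, 7.88e-05). H2-Aa was 7.40-fold higher (2.89 ± 0.32, 4.51e-05), H2-Ab1 6.54-fold (2.71 ± 0.29, 2.27e-05), H2-Eb1 6.23-fold (2.64 ± 0.38, 0.000625) and H2-Oa 4.10-fold (2.04 ± 0.18, 5.43e-09). The H2-DMb genes rose less, H2-DMb2 1.86-fold (0.90 ± 0.20, 0.00152) and H2-DMb1 1.496-fold (0.58 ± 0.16, 0.00982). H2-DMa was at -0.20 ± 0.18 and H2-Ob at 0.18 ± 0.30 (SE). The H2-DMb1 call was the closest to the threshold and was lost when any library but pre-cDC replicate 2 or pDC replicate 3 was left out, with adjusted p-values up to 0.105 without pDC replicate 1. H2-DMb2 missed it without lo-lo replicate 3 (0.0134) or pDC replicate 1 (0.0202).

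Against pre-cDCs, 6 of the 10 genes were higher in pDCs, where 11.4% of all genes tested were higher and 21.7% were called in either direction. These were H2-Eb1 (5.63-fold, log2 fold change 2.49 ± 0.38 SE, adjusted p = 0.00059), Cd74 (5.31-fold), H2-Aa (5.06-fold), H2-Ab1 (4.48-fold), H2-Oa (3.76-fold) and Ciita (2.71-fold, 1.44 ± 0.30 SE, adjusted p = 0.000525). The H2-M genes did not share this. H2-DMa was at -0.60 ± 0.18 (SE, adjusted p = 0.0124), which passed with the replicate block (0.00226), by DESeq2 (0.00649) and without pre-cDC replicate 2 (0.000527), lo-lo replicate 3 (0.00748) or pDC replicate 1 (0.00145). H2-DMb1 was at -0.41 ± 0.16 (0.0524), and passed without pre-cDC replicate 2 (0.00793) or pDC replicate 1 (0.00676). H2-DMb2 was at 0.15 ± 0.20 and H2-Ob at -0.19 ± 0.30. Ciita missed the threshold without pre-cDC replicate 1 (0.0103).

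In the 4 libraries whose label names the matched population, 1 per population and without a test, 44 of the 50 fold changes of the 10 genes in these 5 comparisons had the same direction. From lo-lo to pDC they were 2.27 for H2-Aa, 2.14 for H2-Ab1, 2.01 for H2-Eb1, 2.35 for Cd74, 1.75 for H2-Oa and 2.81 for Ciita on the log2 scale, and -0.24 for H2-DMa. The 6 with another sign concerned H2-Ob, the H2-DMb genes and H2-Eb1, none of them called in the comparison concerned. These 4 libraries are also part of the main fit, and the 5 comparisons share libraries. The 44 are therefore not independent of the main fold changes or of each other, and do not test the assignment of populations. The share of all genes that kept their direction in these 4 libraries is not given here.

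Ratios within a library do not depend on its scaling. The ratio of H2-Aa to H2-Ab1 was 0.7001 to 0.753 in the pre-cDC and lo-lo libraries and 0.821 to 0.880 in the lo-hi and pDC libraries. The sum of the 3 H2-M genes per sum of the 3 classical chain genes was 0.747, 0.422 and 1.40 in pre-cDC, 0.924, 0.475 and 0.815 in lo-lo, 0.174, 0.165 and 0.225 in lo-hi, and 0.111, 0.115 and 0.106 in pDC libraries. RNA of the H2-M chains was thus lower relative to that of the classical chains in every lo-hi and pDC library than in every pre-cDC and lo-lo library. H2-Oa per H2-DMa, 1 chain of the inhibitor relative to 1 chain of H2-M, went the other way, from 0.0191 to 0.0445 in pre-cDC and 0.0321 to 0.0384 in lo-lo to 0.108 to 0.139 in lo-hi and 0.155 to 0.171 in pDC libraries. The 4 populations stood apart in this ratio except pre-cDC and lo-lo. The other chain did not share this order, and H2-Ob per H2-DMa was 0.00973 to 0.0151 in pre-cDC, 0.0106 to 0.0120 in lo-lo, 0.0103 to 0.0292 in lo-hi and 0.0125 to 0.0203 in pDC libraries, with overlap between all neighbouring populations. H2-Oa per H2-Ab1 stayed between 0.0182 and 0.0378. Ratios carry no test here, since their numerators and denominators were tested above, and values of 3′ tags give no molar ratio.

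**Figure D3:**
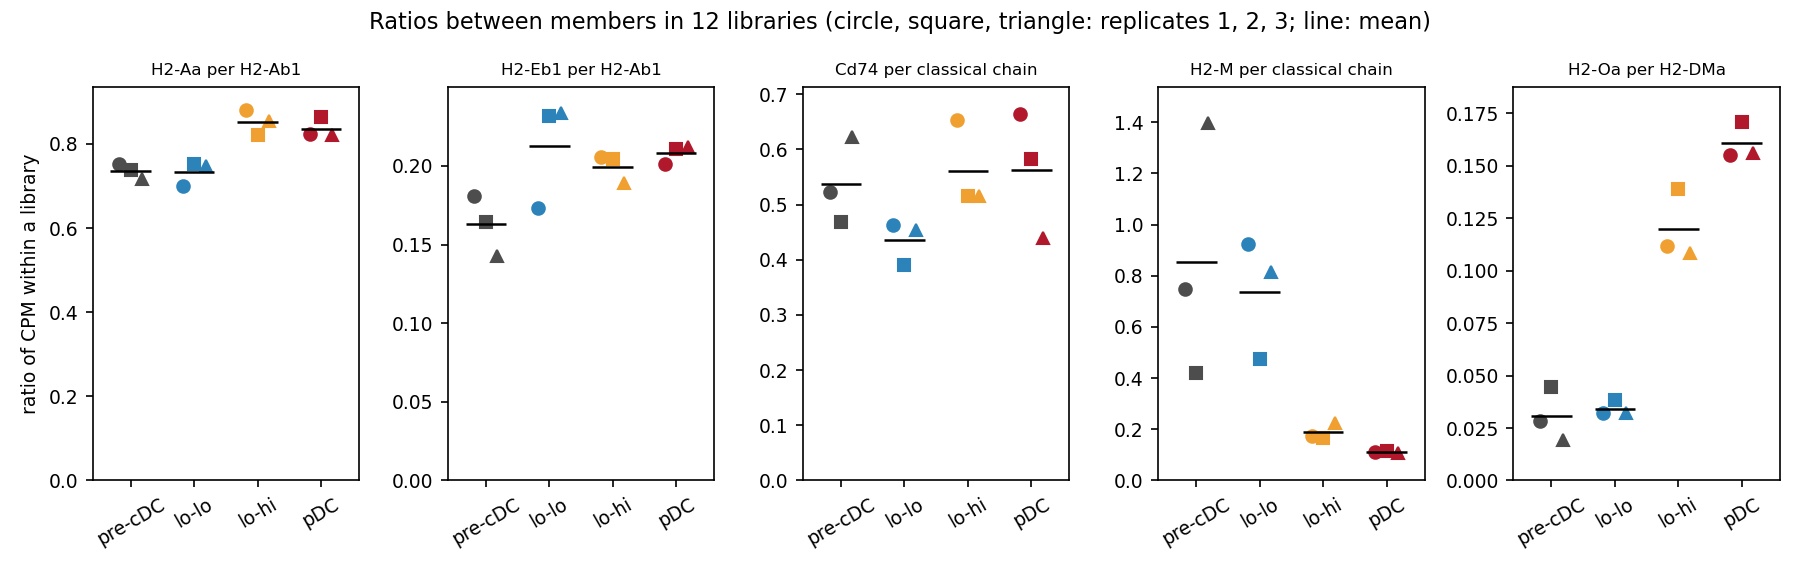
Ratios of CPM between genes within each of the 12 libraries (linear axes from 0), with lines for means of 3; classical chain is the sum of H2-Aa, H2-Ab1 and H2-Eb1, and H2-M that of H2-DMa, H2-DMb1 and H2-DMb2. H2-M per classical chain is 0.106 to 0.225 in lo-hi and pDC and 0.422 to 1.40 in pre-cDC and lo-lo libraries, and H2-Oa per H2-DMa is higher in lo-hi and pDC than in pre-cDC and lo-lo libraries.

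The class II region also holds Psmb8, Psmb9, Tap1 and Tap2, which serve the class I pathway, and the chromatin reader Brd2. None of these 5 neighbours was called by edgeR or DESeq2 in any of the 5 comparisons. At an unadjusted p under 0.05 there were 0 of 5 in each step between neighbouring populations, where 17.6%, 19.4% and 11.3% of all genes tested had such a p. There was 1 of 5 from lo-lo to pDC, beside 31.9% of all genes, and 3 of 5 in pDCs against pre-cDCs, beside 40.6%. From lo-lo to pDC their fold changes were 0.10 to 0.42 on the log2 scale, beside 2.64 to 2.89 for the 3 classical chain genes. H2-Ob, which lies between Tap2 and H2-Ab1, was at 0.18, and H2-Oa, at the other end, at 2.04. Genes that rose and genes that did not thus lay side by side over 252.3 kb.

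Genes of the wider pathway did not move as a block. Of the 7 genes for factors that bind the X and Y boxes, Nfya (-1.09 ± 0.23 SE, adjusted p = 0.000793) and Nfyb (-1.11 ± 0.16, 1.15e-05) fell from lo-lo to pDC, and 0 of the 7 rose. Of all genes tested, 7.08% were called lower and 6.71% higher in this comparison, so that 0 of 7 higher lies near that share. Nfyc, Creb1, Rfxap and Rfxank were not called, with values from -0.27 to 0.59, and Rfx5 had 2 to 9 counts per library. Against pre-cDCs, Rfxank was higher in pDCs (0.85 ± 0.23 SE, adjusted p = 0.00463) and Nfyb lower (-0.98 ± 0.17, 4.54e-05). Of 8 genes for endosomal processing, 4 rose from lo-lo to pDC, beside 6.71% of all genes tested. The largest of these changes was that of Ctsl, a cysteine protease that can trim the invariant chain, with 76.1, 116 and 69.6 CPM in pre-cDC, 201, 208 and 185 in lo-lo, 676, 669 and 554 in lo-hi, and 1475, 962 and 778 in pDC libraries (2.44 ± 0.21, 2.73e-08). Its libraries did not overlap between any neighbouring populations, in the order of Ccr9 and Siglech. Ctsb (0.92 ± 0.14), Ctsh (0.86 ± 0.17) and Ctss (0.75 ± 0.16), the last the main invariant chain protease of many antigen-presenting cells, rose less. Ifi30, the endosomal thiol reductase, fell (-0.75 ± 0.16, 0.000831). Ctsd, Ctsz and Lgmn had values of 0.45, 0.42 and -0.40 and were not called.

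Among genes for turnover at the surface, March1, whose ligase marks class II molecules and Cd86 for degradation, was lower in pDC than in pre-cDC libraries (-0.79 ± 0.18 SE, adjusted p = 0.00108). It was at 36.0, 37.2 and 40.2 CPM in pre-cDC, 21.0, 23.2 and 24.6 in lo-lo, 15.7, 13.5 and 9.92 in lo-hi, and 19.6, 23.4 and 23.0 in pDC libraries, lowest in lo-hi. Cd83 and March8 had few counts and were not called. The costimulatory genes Cd40 (-1.92 ± 0.39, 0.000372) and Cd86 (-1.42 ± 0.36, 0.0034) were also lower in pDCs than in pre-cDCs, and neither was called among the Siglec-H+ populations. Of all genes tested, 10.4% were called lower in pDCs than in pre-cDCs. Cd40 was already lower in lo-lo than in pre-cDC libraries (-2.28 ± 0.405, 0.000592), where Cd86 was not called (-1.15 ± 0.353, 0.0527). Cd80 had at most 3 counts in any library. Of 6 genes of the class I pathway taken for comparison, 6 rose from lo-lo to pDC, with fold changes of 0.72 to 1.54, and 3 from lo-lo to lo-hi (B2m, H2-K1 and Psmb10). Of all genes tested, 6.71% were called higher from lo-lo to pDC and 2.33% from lo-lo to lo-hi. H2-K1 was at 808, 913 and 612 CPM in pre-cDC, 869, 870 and 685 in lo-lo, 1820, 1656 and 1340 in lo-hi, and 2546, 2358 and 2116 in pDC libraries. The median of these 6 from lo-lo to pDC was 0.99, beside 2.34 for the 10 class II genes and 0.02 for all genes tested.

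**Figure D4:**
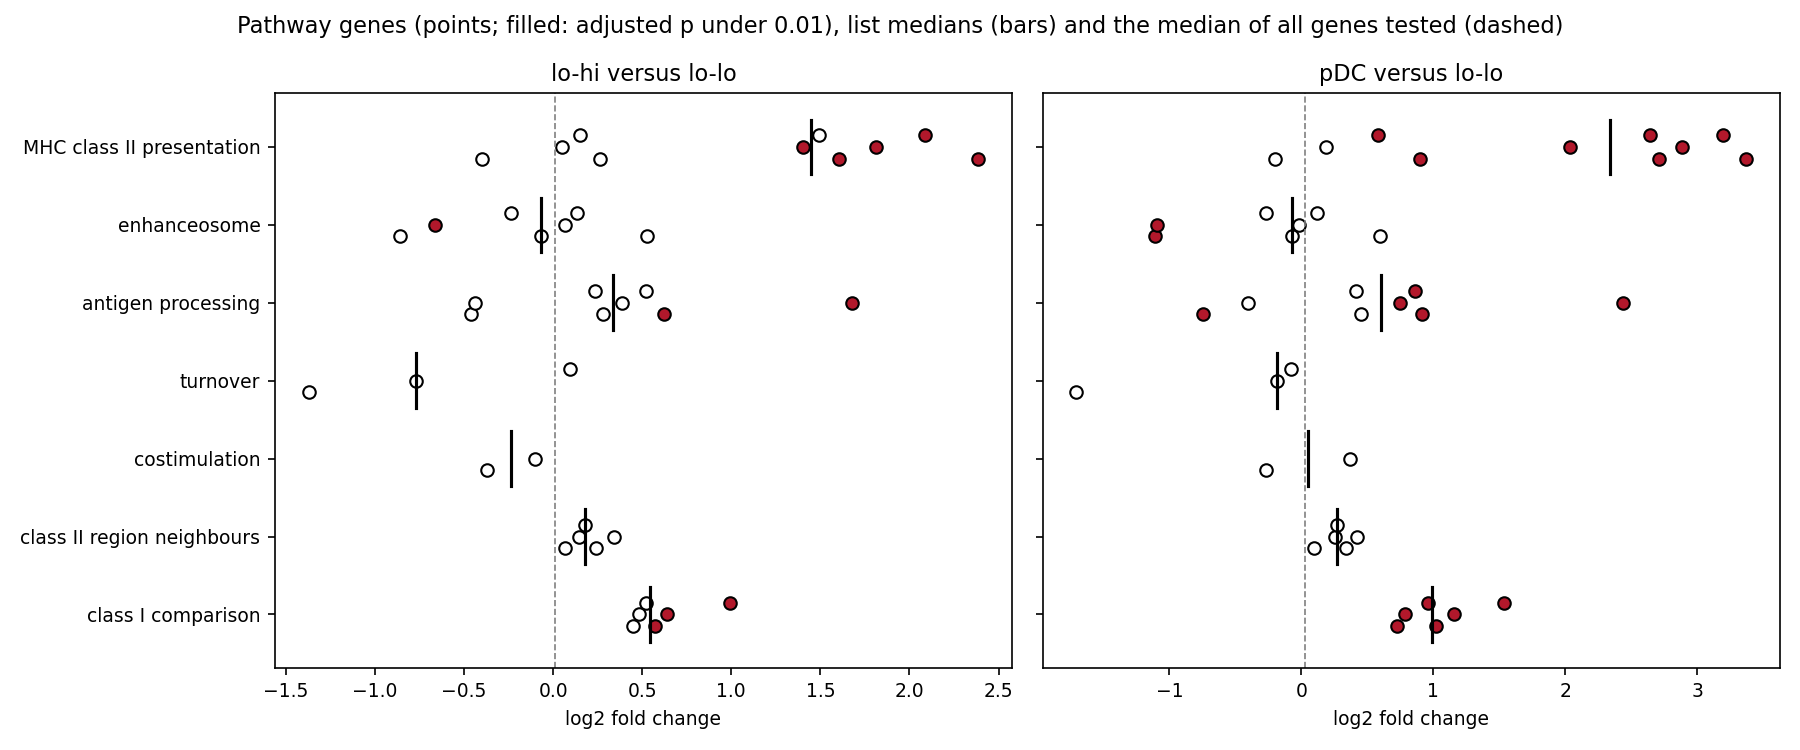
Log2 fold changes of the genes of 7 lists from lo-lo to lo-hi and from lo-lo to pDC; filled points passed an adjusted p under 0.01, bars are list medians and the dashed line is the median of all genes tested. From lo-lo to pDC the class II genes have a median of 2.34, the class I genes 0.99 and the region's neighbours 0.27.

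Among 7790 genes with a mean of at least 10 CPM outside these lists, the likeness to the classical chains was taken as the Pearson correlation over the 12 libraries with the mean z-score of H2-Aa, H2-Ab1, H2-Eb1 and Cd74. The 8 most alike were Cd209d (0.974), Cd4 (0.971), Pgam2 (0.966), Cd8b1 (0.964), Gpm6b (0.962), Klk1 (0.962), Gpr35 (0.959) and Klk1b27 (0.959). Cd4, the coreceptor for class II on T cells, was at 13.8 ± 6.69 CPM in pre-cDC, 14.5 ± 6.93 in lo-lo, 97.6 ± 25.0 in lo-hi and 245 ± 20.9 in pDC libraries (SD, n = 3). The kallikrein gene Klk1 went from 125 ± 30.3 CPM in lo-lo to 1309 ± 247 in pDC libraries. The 3 genes most opposed were Mcm3 (-0.973), Mcm6 (-0.971), both of the replicative helicase, and Gpd2 (-0.971). Among the other class II genes the likeness was 0.974 for H2-Oa, 0.882 for Ciita, 0.413 for H2-DMb2, 0.095 for H2-DMb1, -0.04 for H2-Ob and -0.516 for H2-DMa. Ciita and H2-Ob, with means under 10 CPM, did not meet the minimum set above, and their values rest on few counts. All these values come from the same 12 libraries of 4 populations, so that any gene ordered like the populations scores high.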

How the data were processed

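RNA of the 4 populations was sequenced from the 3′ end by SCRB-seq. The authors deposited raw counts per Ensembl gene and well, made with zUMIs and STAR 2.5.2b on mm10 with the Ensembl annotation of GRCm38. Whether these counts are reads or molecular identifiers is not given in the sources used here. Of 21754 identifiers, 21410 had a symbol in GENCODE vM21. The paper speaks of 3 individual mice, so that libraries of 1 replicate number are taken to share a mouse, which the labels do not state. In a check over 7824 genes, 16 of 18 pairs of libraries with the same number had deviations from their population means that correlated above 0.1.

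After TMM scaling, edgeR 4.0.16 (R 4.3.3) fitted quasi-likelihood models to the 15293 genes whose counts averaged 1 or more (robust, 12 libraries in 1 fit, no covariates) with Benjamini-Hochberg adjustment at 0.01 over all genes. Alternatives were the labelled groups, DESeq2 1.42.0, DESeq2 size factors, other filters and cutoffs, thinning to the smallest total, the replicate block, fits of 6 libraries, and leaving out libraries. The likeness used log2 CPM with 0.5 added. The named genes are the 10, the pathway lists, and the 8 most and 3 least alike. The genes, lists and markers were chosen with earlier results of these data known. One marker of the B lineage list is not reported here, and the list's sum leaves it out. Floors of 3 counts cover counting error only.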

Additional observations from a re-analysis of the deposited data

How the results depend on the processing

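Counts of the class II genes called kept within 1.5 times in most alternatives, and the exceptions follow; the cause was not tested. From pre-cDC to lo-lo the count of 2 was 1 with DESeq2, thinning, only the 6 libraries compared and only the 8 libraries of replicates 1 and 2 (added after seeing the data), 4 without the filter, and 1 to 2 leaving out 1 library. From lo-lo to lo-hi the count of 5 was 3 after thinning and 2 in only the 6 libraries compared, and 2 to 6 leaving out 1 library. From lo-hi to pDC the count of 0 was 3 with DESeq2, 5 without the filter, 2 with the replicate block, 3 in only the 6 libraries compared and 0 in every fit leaving out 1 library. Leaving out 1 library gave 6 to 8 from lo-lo to pDC, 5 to 8 against pre-cDCs, and 8 to 9 over the 4 populations. Of the 12 libraries, 10 correlated best with a library of their own number, and with the replicate block H2-DMa in pDC against pre-cDC, H2-DMb2 in 2 comparisons and H2-Ab1 in pDC against lo-hi gained a call, while no other call changed. Over all genes the block gave 743 in place of 483 called from pre-cDC to lo-lo and 346 in place of 147 from lo-hi to pDC. The unfiltered table gave 733 and 344, and a cutoff of 0.05 gave 907, 1321 (790 at 0.01), 327 and, from lo-lo to pDC, 3332 (2108). Only the 6 libraries compared gave 1191 in place of 790 from lo-lo to lo-hi, and the 8 libraries of replicates 1 and 2 gave 247 in place of 483 from pre-cDC to lo-lo. Fits without 1 library gave 280 to 662, 381 to 945 and 65 to 213 for the steps in order.

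With the labelled groups 0 class II genes were called in place of 2, 5, 8, 6 and 9, and 0 genes in all, with 138 to 344 genes at an unadjusted p under 0.05. The log2 fold changes of lo-lo against pre-cDC that turned were H2-Aa at 0.90, H2-Ab1 at 0.95, H2-Eb1 at 0.97, Cd74 at 0.94, H2-DMb1 at 0.051, H2-DMb2 at 0.079, H2-Oa at 0.58, H2-Ob at 0.038 and Ciita at 0.76. The log2 fold changes of lo-hi against lo-lo that turned were H2-Aa at -0.11, H2-Ab1 at -0.17, H2-Eb1 at -0.15, Cd74 at -0.23, H2-DMa at 0.10, H2-Ob at -0.23 and Ciita at -0.14. The log2 fold changes of pDC against lo-hi that turned were H2-Aa at -0.17, H2-Ab1 at -0.14, H2-Eb1 at -0.10, Cd74 at -0.44, H2-DMa at -0.23, H2-DMb1 at -0.50, H2-DMb2 at -0.50, H2-Oa at -0.19, H2-Ob at 0.53 and Ciita at -0.13. The log2 fold changes of pDC against lo-lo that turned were H2-Aa at -0.28, H2-Ab1 at -0.32, H2-Eb1 at -0.25, Cd74 at -0.67, H2-DMb1 at -0.45, H2-DMb2 at -0.36, H2-Oa at -0.10 and Ciita at -0.28. The log2 fold changes of pDC against pre-cDC that turned were H2-DMb2 at -0.28 and H2-Ob at 0.33.

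In the 4 libraries with agreeing labels, those that turned were H2-Eb1 at 0.17 in lo-lo against pre-cDC; H2-DMb1 at -0.033 and H2-Ob at -0.53 in lo-hi against lo-lo; H2-Ob at 1.01 in pDC against lo-hi; H2-DMb2 at -0.18 and H2-Ob at 0.088 in pDC against pre-cDC. Thinning turned H2-Ob to -0.008 in lo-hi against lo-lo and -0.045 in pDC against lo-lo, and replicates 1 and 2 alone turned H2-Ob to 0.15 in pDC against lo-hi and H2-DMa to 0.021 in pDC against lo-lo. Leaving out 1 library gave -0.45 to 0.12 for H2-Eb1 in lo-lo against pre-cDC, and -0.078 to 0.11, -0.027 to 0.29 and -0.067 to 0.52 for H2-DMb1, H2-DMb2 and H2-Ob in lo-hi against lo-lo. It gave -0.34 to 0.25 for H2-Ob in pDC against lo-hi and -0.076 to 0.29 for H2-DMb2 in pDC against pre-cDC. None of these was called. At this depth Ciita in lo-lo rests on 3 to 5 counts per library.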

Other observations

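The replicate 3 libraries of all 4 populations (A9 to A12) had Xist at 26.6 to 58.4 CPM, beside 218 to 403 CPM in replicates 1 and 298 to 596 CPM in replicates 2. The Y-linked genes Ddx3y and Eif2s3y were at 19.6 to 62.9 and 40.2 to 58.6 CPM in the replicate 3 libraries. They were at 0.17 to 3.62 and 0.886 to 3.47 CPM in the other 8. The classical chain genes were lowest in replicate 3 in the pre-cDC, lo-hi and pDC populations, and not in lo-lo. With the 8 libraries of replicates 1 and 2 alone, a choice made after these values were seen, 8 of the 10 class II genes were called higher from lo-lo to pDC, where 4.87% of all genes tested were. From pre-cDC to lo-lo 1 of the 10 was called in place of 2, and 247 of all genes in place of 483.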
